A study of Mus musculus with 9 samples.

Results

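The mouse genes of the collagen, laminin and integrin families were followed through the ATAC-seq peak lists of purified brain endothelial cells (ECs). A gene was taken where its name in the deposited annotation was that of a collagen chain (Col, a number, a and a number), a laminin chain (Lama, Lamb or Lamc with a number), an integrin subunit with a number (Itga or Itgb), or was Nid1, Nid2, Hspg2 or Agrn. This gave 74 of the 20035 genes named in the lists, with 1233 of 253457 peaks. Peaks of the 9 libraries that shared at least 1 bp were merged into 92495 regions. In 484 of these the strongest peak was named for one of the 74 genes. Of the family genes looked for, Col4a6, Col11a2, Col6a4, Col20a1, Lamb3 and Itga7 had no peak in any library.

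All mice were C57BL/6J and carried CDH5-CreERT2, a tamoxifen-inducible Cre recombinase driven by the VE-cadherin promoter and therefore aimed at ECs, and all received tamoxifen as young adults. In EC-K4KO mice (ECK4KO in the labels) Klf4, the gene of a zinc-finger transcription factor, was floxed, and in WT Cre mice (CdH5CRE) it was intact. The labels give WT Cre 2 young and 2 old libraries, and EC-K4KO 3 young and 2 old. They give each library a replicate number and no animal, so a p-value measures the spread between these libraries. Young and old libraries carry different prefixes in their library names, and age and that prefix cannot be told apart.

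ECs rest on a basement membrane, a thin sheet of extracellular matrix that they build together with pericytes and astrocytes. Type IV collagen and laminin each form a network there, nidogens and the heparan sulfate proteoglycans perlecan and agrin tie the networks together, and integrins, pairs of an alpha and a beta subunit, hold the cell to them. In brain vessels this sheet is part of the blood-brain barrier, and mutations of COL4A1 or COL4A2 cause small vessel disease. ATAC-seq measures where DNA is open to a transposase, at promoters and at distal elements such as enhancers. It does not measure RNA or protein, and each peak was given by the authors' annotation to the gene with the nearest transcription start site (TSS).

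The lists differed greatly in length, from 6157 and 9598 peaks in young WT Cre to 23848 to 27992 in young EC-K4KO, 32555 and 43893 in old WT Cre and 39079 and 45026 in old EC-K4KO. Read counts were not analysed here, so the depth behind these lengths is unknown. Of 12 EC markers, 6 to 7 had a promoter peak in young WT Cre, 7 to 10 in young EC-K4KO, 9 to 10 in old WT Cre and 8 to 9 in old EC-K4KO, and the tight junction gene Cldn5 had one in all 9 libraries. Of 10 mural markers, 0 had one in any young library, 0 to 2 in old WT Cre and 3 to 5 in old EC-K4KO, with Rgs5, Abcc9, Vtn and Notch3 at 0 throughout. Of 10 fibroblast markers, 0 had one in young WT Cre, 1 to 2 in young EC-K4KO, 0 to 1 in old WT Cre and 2 to 4 in old EC-K4KO, and Dcn, Lum, Col1a2 and Col3a1 had none. None of 10 microglial markers had a promoter peak, and at most 3 astrocyte, 2 oligodendrocyte, 2 neuronal and 1 blood marker (of 8 each) had one in a library. The mural and fibroblast counts were highest in old EC-K4KO, and their part in the results on these genes was not tested. In such bulk nuclei, a site open in fewer nuclei and a site less open in each cannot be told apart. A peak near the Klf4 start was present in all 9 libraries, and a peak there does not show whether the floxed part was removed.

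The number of genes of these families with a promoter peak was far higher in the longer lists. A promoter peak here is one that the authors' annotation places in the class promoter-TSS. Young WT Cre libraries had 3 and 5 of the 74 genes with one, young EC-K4KO 9, 14 and 11, old WT Cre 21 and 22, and old EC-K4KO 21 and 25. Over all genes the same counts were 3399 and 4479, then 6054, 7222 and 7317, then 8126 and 8094, and 8468 and 8279. For the families as for all genes, young WT Cre lay below young EC-K4KO and both below the old groups. The means were 4 ± 1.41 (SD, n = 2), 11.3 ± 2.52 (n = 3), 21.5 ± 0.707 (n = 2) and 23.0 ± 2.83 (n = 2). EC-K4KO exceeded WT Cre by 4.42 genes on average within age, and old exceeded young by 14.6 within genotype. With every list shortened to its 6157 strongest peaks, the counts were 3 and 5, then 4, 2 and 3, then 4 and 4, then 1 and 1, and the average differences became -2 for genotype and -1 for age. The signs of both differences therefore turned with list length.

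**Figure D1:**
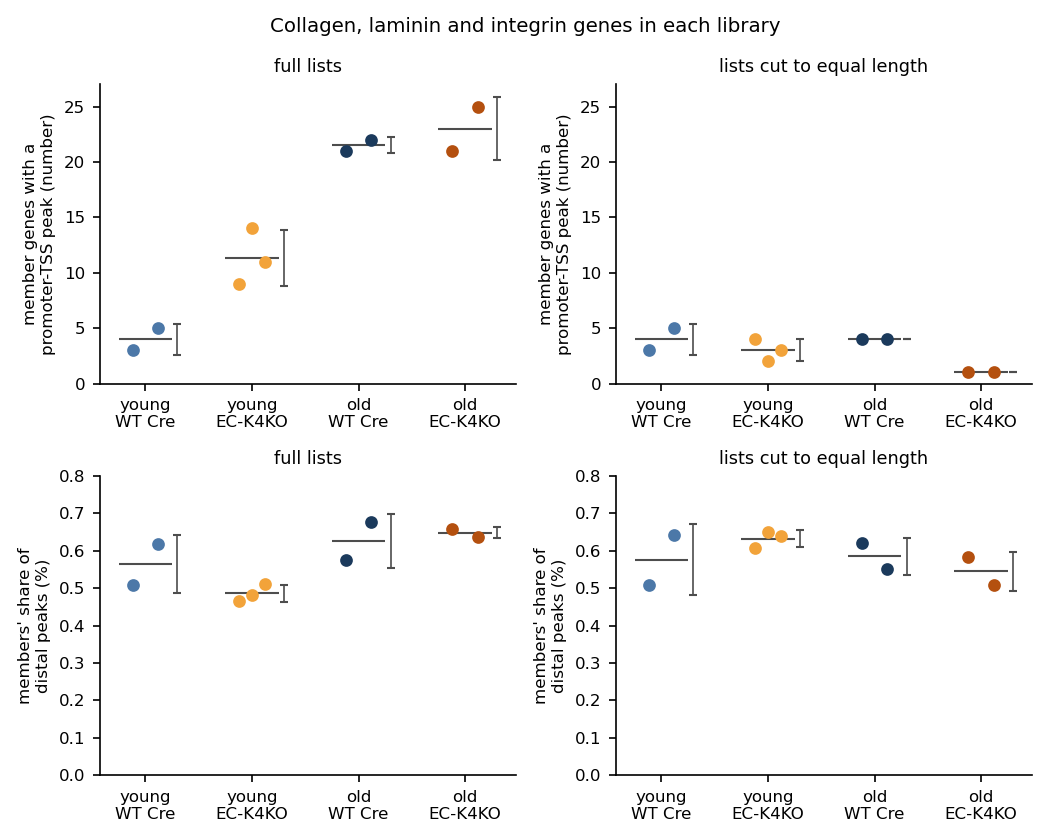
Number of the 74 genes with a promoter peak and share of each library's distal peaks carried by them, one point per library, with horizontal lines at group means and error bars of 1 SD, over full lists (left) and the 6157 strongest peaks of each library (right). The counts of 3 to 25 genes in full lists shrink to 1 to 5 in the shortened lists.

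Compared with other genes, the families seldom had a promoter that was open throughout. Across the 9 libraries, 39 of the 74 genes (52.7%) had a promoter peak in at least 1, against 55.7% of all genes named. In at least 5 libraries it was 10 genes (13.5% against 35.2%), in at least 8 it was 5 genes (6.76% against 17.6%), and in all 9 it was Itga1 alone (1.35% against 11.4%). Counting instead any peak within 1000 bp of the TSS, 48 genes (64.9% against 63.7% of all genes) were open in at least 1 library. In at least 5 it was 25 genes (33.8% against 46.5%), and in at least 8 it was 7 genes (9.46% against 25.6%). The promoter peaks of the families were also weak. Their median rank, counted from the strongest peak of a library, lay at 27.6 to 61.1% of the list, and that of all promoter peaks at 15.4 to 37.7%, with the family median lower in strength in each of the 9 libraries.

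Itga1, the alpha subunit of the collagen and laminin receptor alpha1beta1, was the gene with a promoter peak in every library. Its fold enrichment, the ratio of the peak's signal to local background, was 4.4 and 5.92 in young WT Cre, 5.32, 7.17 and 7.33 in young EC-K4KO, 8.04 and 8.67 in old WT Cre and 9.55 and 8.52 in old EC-K4KO. Fold depends on the background of each library, so values of different libraries are set side by side and not tested. Its promoter, as RefSeq gives it on GRCm38.p6 (the build of mm10), is shown because it alone had a promoter peak in every library. The sequence is 5′ to 3′ on the minus strand at chr13:115101915-115102214, from 250 bases before to 50 after the start, with matches to the ETS core (CNGGAA on either strand) in capitals. ETS factors act at many endothelial genes. The peaks of all libraries shared the bases chr13:115101770-115102063, and the marked matches lie outside those bases.
Itga1 promoter: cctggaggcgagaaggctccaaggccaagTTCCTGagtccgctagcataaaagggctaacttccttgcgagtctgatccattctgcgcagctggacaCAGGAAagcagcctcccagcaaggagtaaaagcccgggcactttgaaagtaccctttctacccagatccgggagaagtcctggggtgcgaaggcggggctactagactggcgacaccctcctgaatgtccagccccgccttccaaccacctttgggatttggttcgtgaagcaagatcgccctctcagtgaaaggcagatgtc
It held no match to the KLF pattern CCNCNCCC on either strand. Of 14430 genes, 63.5% held a match in any of their RefSeq promoters of the same length. Among genes with a promoter peak in at least 5 libraries the share was 76.1%. A match to the ETS core was held by 67.2% of the 14430 genes. With a promoter peak in at least 5 libraries it was 72.9%, so such a match is common.

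Lamb2, Agrn, Nid2 and Lamc1 followed, each with a promoter peak in 8 libraries. Lamb2, the beta2 chain of vascular laminins, had fold values of 5.81 and 5.63 in young WT Cre, 3.77 and 6.58 in young EC-K4KO replicates 1 and 2, 6.81 and 7.39 in old WT Cre and 7.56 and 7.44 in old EC-K4KO. In young EC-K4KO replicate 3 the peak over the same region, with a fold of 8.67, carried another gene's name. Agrn, the proteoglycan agrin, lacked a promoter peak only in young WT Cre replicate 1 and had 3.84 in replicate 2, 3.61 to 6.23 in young EC-K4KO, 5.89 and 6.75 in old WT Cre and 5.90 and 6.08 in old EC-K4KO. Nid2, one of the nidogen linkers, was missing in the same library and had 4.19 in the other young WT Cre library, 3.92 to 5.31 in young EC-K4KO, 4.62 and 5.0 in old WT Cre and 6.15 and 6.83 in old EC-K4KO. Lamc1, the gamma chain found in most laminins, was missing in young WT Cre replicate 2 instead. Its fold values were 3.72 in replicate 1, 3.53 to 4.78 in young EC-K4KO, 3.97 and 4.93 in old WT Cre and 5.09 and 5.10 in old EC-K4KO. Agrn, Nid2 and Lamc1 were thus each missing in 1 library of young WT Cre, the group with the shortest lists.

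**Figure D2:**
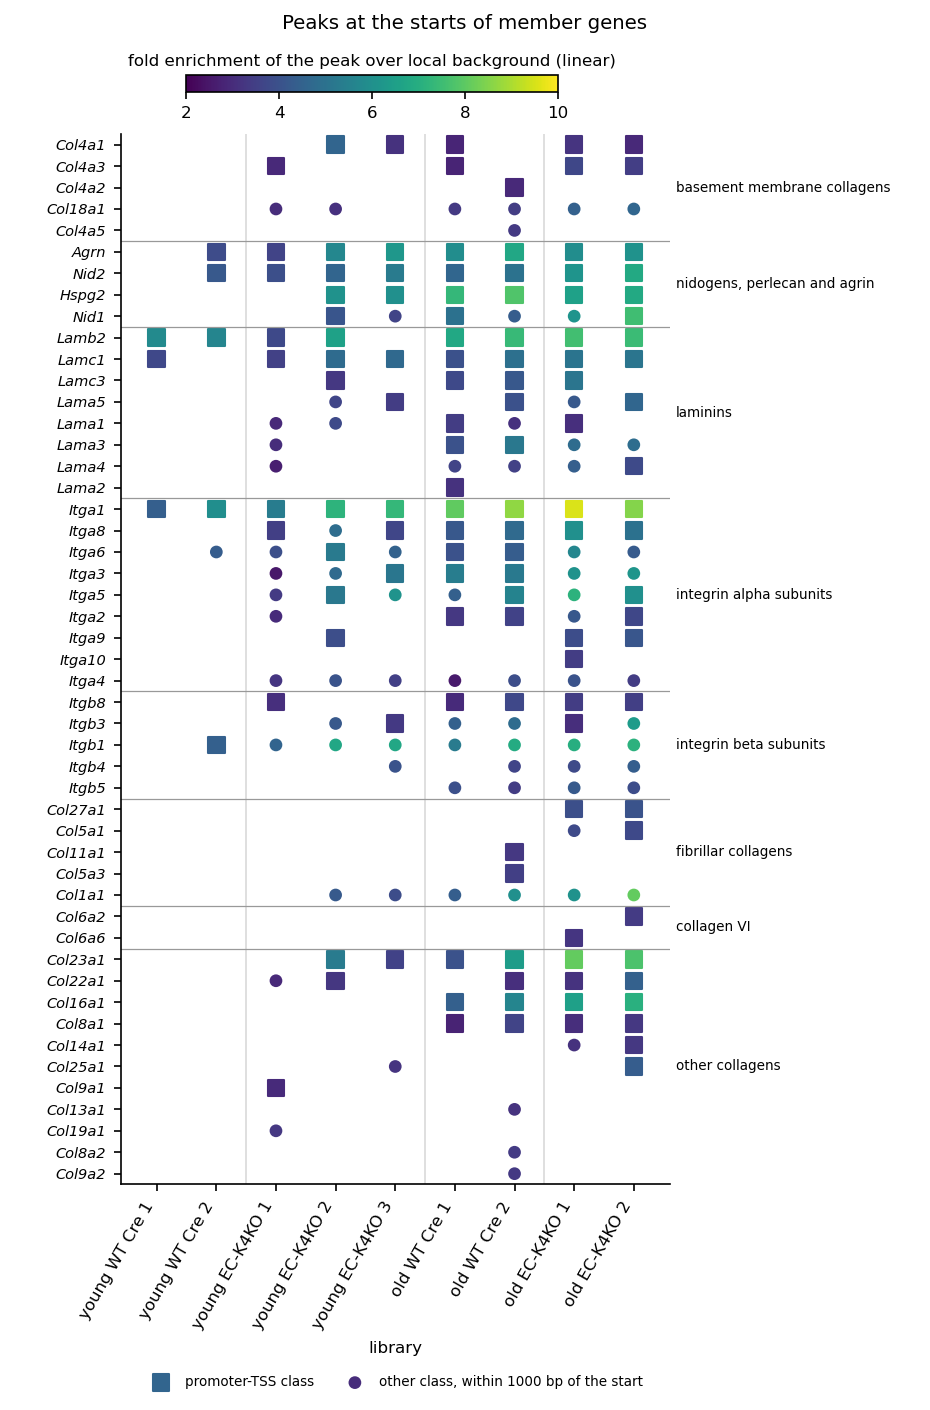
Peaks at the TSS of family genes (rows, by role) in each of the 9 libraries (columns), with squares for the promoter class, circles for other peaks within 1000 bp, colour for the fold enrichment and gaps where neither was found under that gene's name. Itga1 is the one row with 9 squares, and each young WT Cre column has more gaps than any other column.

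A promoter peak absent from both young WT Cre libraries and present in at least 2 young EC-K4KO libraries was found at 4 of the 74 genes (5.41%), namely Hspg2, Col23a1, Itga8 and Col4a1, against 13.1% of all genes. The same pattern in old WT Cre took in 11 genes (14.9%) against 14.9% of all genes, and in old EC-K4KO 11 genes (14.9%) against 16.8%. These contrasts share the young WT Cre libraries. The share in young EC-K4KO was below the background, and those in the old groups were at it or a little below.

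Hspg2, Col23a1 and Itga8 showed that pattern in all 3 other groups. The promoter that Col4a1 shares with Col4a2 also did, counting its peak named for Col4a2 in old WT Cre replicate 2. Hspg2 encodes perlecan, and its promoter had fold values of 6.04 and 5.99 in young EC-K4KO replicates 2 and 3, 7.33 and 7.80 in old WT Cre and 6.56 and 6.84 in old EC-K4KO. Col23a1, a transmembrane collagen, had 5.29 and 3.58 in the same young EC-K4KO libraries, 4.01 and 6.38 in old WT Cre and 8.09 and 7.75 in old EC-K4KO. Itga8, an alpha subunit known from mesenchymal and smooth muscle cells, had 3.48 and 3.67 in young EC-K4KO replicates 1 and 3, 4.18 and 4.73 in old WT Cre and 5.98 and 5.0 in old EC-K4KO. For Itga8 the remaining young EC-K4KO library held the region too, with a fold of 4.83, under another class, so all 3 held it. Hspg2 and Col23a1 lacked a peak at the TSS in young EC-K4KO replicate 1.

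The chains and subunits best known from brain ECs were often open near the TSS without being in the promoter class. Itgb1, the beta subunit that most matrix-binding integrins share, had a peak within 1000 bp of the TSS in every library but young WT Cre replicate 1. Its fold values were 4.41 in young WT Cre replicate 2, 4.56, 6.76 and 6.78 in young EC-K4KO, 5.29 and 6.91 in old WT Cre and 7.0 and 7.10 in old EC-K4KO. Itga6, the alpha subunit of a laminin receptor, was missing in the same library and had 4.34, then 3.92, 5.26 and 4.48, then 4.02 and 4.34, then 5.67 and 4.27. Itga3 and Itga5, subunits of a laminin and a fibronectin receptor, and Itga4, best known from leukocytes, were each open near the TSS in 7 libraries and missing only in young WT Cre. The folds of Itga4 ran from 2.55 to 4.04, those of Itga3 from 2.53 to 6.17 and those of Itga5 from 3.38 to 7.13.

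Several genes of known vascular roles had no peak near the TSS in any library. Col15a1, a collagen of the basement membrane zone, and Lamb1, the beta1 chain of laminins, had none within 1000 bp. The laminin alpha chains of ECs, Lama4 and Lama5, had one in 5 libraries each, and Col18a1, the collagen that yields endostatin, in 6. Itgb3, the beta subunit of a vitronectin receptor, had one in 6 libraries, Itga2, of a collagen receptor, in 5, and Itgb4 and Itgb5 in 4 each. Of the integrins of blood cells, Itgb2, Itgb7 and Itga2b had none in any library. Of the collagens that mark fibroblasts, Col1a2 and Col3a1 had none, and Col1a1 had a peak in intron 1 in 6 libraries, with 4.23 and 3.87 in young EC-K4KO replicates 2 and 3, 4.35 and 5.98 in old WT Cre and 6.09 and 8.08 in old EC-K4KO.

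Other collagen and nidogen starts were open in the old libraries, and Nid1 in part of young EC-K4KO. Col16a1, a fibril-associated collagen, had a promoter peak only in the 4 old libraries, with 4.42 and 5.65 in WT Cre and 6.51 and 7.08 in EC-K4KO. Col8a1, a network-forming collagen of vessels, was likewise found only there, with 2.75, 3.60, 3.03 and 3.28. The Nid1 start, of the other nidogen, was covered by 1 region in 6 libraries, with folds of 4.10 and 3.60 in young EC-K4KO replicates 2 and 3, 5.0 and 4.33 in old WT Cre and 6.13 and 7.55 in old EC-K4KO. In 3 of the 6 the peak was in the promoter class, so in the old groups the class differed between replicates where presence did not.

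By role, promoters were open in at least 1 library for 4 of the 4 nidogen, perlecan and agrin genes, 8 of 10 laminins and 8 of 11 integrin alpha subunits. The corresponding numbers were 3 of 9 integrin beta subunits, 3 of 7 basement membrane collagens, 2 of 5 collagen VI chains, 4 of 10 fibrillar collagens and 7 of 18 other collagens. Distal regions were spread over all of these roles, counted here by any distal peak named for the gene, whether or not it was the region's strongest. There were 73 for laminins, 64 for integrin alpha and 57 for integrin beta subunits and 57 for basement membrane collagens. Nidogens, perlecan and agrin had 21, collagen VI 19, fibrillar collagens 55 and other collagens 90.

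Most peaks of the families were distal, meaning over 1000 bp from a TSS and outside the promoter class. Distal peaks numbered 11 and 25 in young WT Cre, 72, 76 and 93 in young EC-K4KO, 192 and 149 in old WT Cre and 222 and 180 in old EC-K4KO. As a share of all distal peaks of the same library they took 0.509 and 0.619% in young WT Cre, 0.466, 0.483 and 0.511% in young EC-K4KO, 0.575 and 0.677% in old WT Cre and 0.659 and 0.638% in old EC-K4KO. The group means were 0.564 ± 0.0778% (SD, n = 2), 0.487 ± 0.0229% (n = 3), 0.626 ± 0.0723% (n = 2) and 0.649 ± 0.0152% (n = 2). Both old groups lay above young EC-K4KO, and young WT Cre overlapped with young EC-K4KO and old WT Cre. EC-K4KO differed from WT Cre by -0.0277 percentage points within age, and by 0.00786 in the 6157 strongest peaks and 0.00722 in peaks with q under 0.01. Old exceeded young by 0.112 percentage points within genotype, and in the 6157 strongest peaks the difference was -0.0388.

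The regions of the families lay inside genes more often than others did. Of the 484 regions, 434 (89.7%) were distal and 29 (5.99%) at promoters, against 86.3% and 10.1% of all regions. Introns held 51.5% of the family regions and 37.0% of all, and intergenic sequence 35.3% and 46.7%. By the deposited annotation, 219 of the 434 distal regions (50.5%) lay within the gene they were named for, 171 (39.4%) between genes and 44 (10.1%) within another gene. These are long genes, with a median length of 100.4 kb against 21.89 kb for 16557 other protein-coding genes of GENCODE M21. Per gene the families had a median of 3 regions inside the gene and the other genes 1. Per 100 kb of gene the medians were 4.506 and 5.072. Genes of like length were not compared, so whether the number was high for that length was not tested. Over the 434 distal regions the median distance to the TSS was 43962 bp, against 45026 bp for all distal regions.

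Genes with many distal regions were Col22a1 with 20, Col4a1 with 19, Col4a2 and Itga1 with 15 each, Itgb6 with 14, Col11a1 and Lama3 with 13 each, and Col14a1 and Itga6 with 12 each. They differed in how far libraries shared those regions. For Col22a1, a collagen of tissue junctions, the number of distal peaks was 0 and 1 in young WT Cre, 3, 1 and 3 in young EC-K4KO, 7 and 0 in old WT Cre and 4 and 2 in old EC-K4KO, and 1 of its 20 regions was found in more than a single library. For the cartilage collagen Col11a1 the numbers were 0 and 0, 1, 4 and 1, 5 and 2, and 0 and 0, and none of its 13 regions was found in more than a single library. For Itgb6, an epithelial integrin subunit, the numbers were 0 and 0, 1, 3 and 3, 8 and 9, and 8 and 7, and 6 of its 14 distal regions lay in the neighbouring gene Rbms1. Lama3, a laminin chain of epithelia, had 0 and 1, 0, 0 and 3, 10 and 4, and 7 and 4. Col14a1, a collagen bound to fibrils, had 0 and 0, 3, 2 and 2, 6 and 4, and 6 and 5. Neither had more than 1 distal peak in a young WT Cre library.

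**Figure D3:**
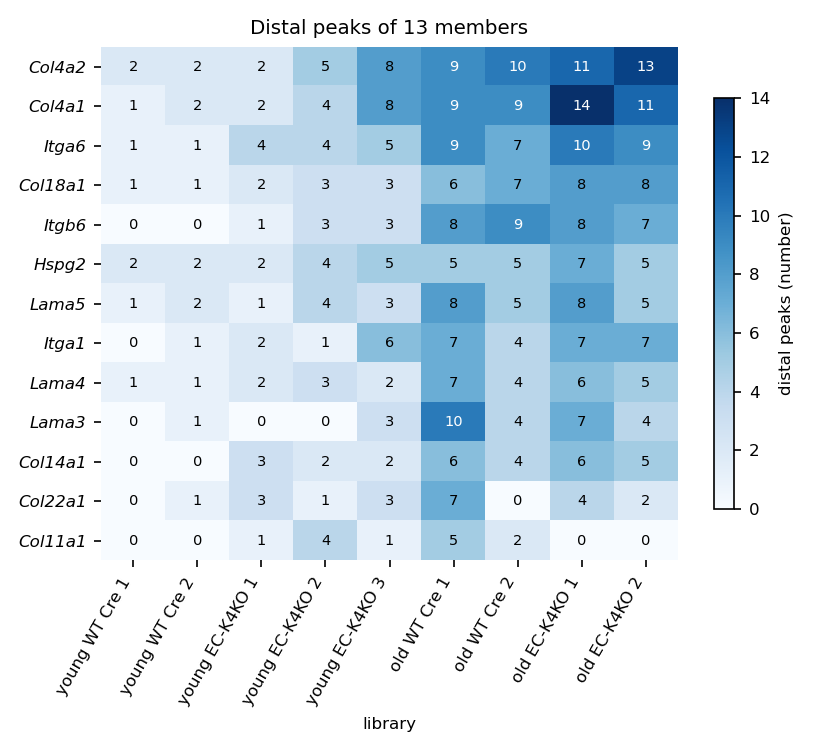
Number of distal peaks per library for 13 genes of the families with many distal peaks or regions, one cell per gene and library, ordered by total. Col4a2 and Col4a1 lead with 62 and 60 peaks over the 9 libraries, and Col22a1 and Col11a1 have many regions that libraries did not share.

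Counted by peaks, Col4a2 (62), Col4a1 (60) and Itga6 (50) led, followed by Col18a1 and Itgb6 with 39 each and by Hspg2 and Lama5 with 37 each. Col4a2 had 2 and 2 distal peaks in young WT Cre, 2, 5 and 8 in young EC-K4KO, 9 and 10 in old WT Cre and 11 and 13 in old EC-K4KO. Col4a1 had 1 and 2, 2, 4 and 8, 9 and 9, and 14 and 11. Itga6 had 1 and 1, 4, 4 and 5, 9 and 7, and 10 and 9. Col18a1 had 1 and 1, 2, 3 and 3, 6 and 7, and 8 and 8. In each of these 4 genes both old groups lay above both young groups, as did the lists as a whole. Hspg2 had 2 and 2, then 2, 4 and 5, then 5 and 5, then 7 and 5, a smaller range, and Lama5 had 1 and 2, 1, 4 and 3, 8 and 5, and 8 and 5. Itga1 had 0 and 1, 2, 1 and 6, 7 and 4, and 7 and 7, all between genes. Per 100 kb of gene, the highest value was that of Col9a2 (18.82, from 3 regions), followed by Col4a2 (16.85), Itga6 (16.84), Col8a2 (14.53), Lama5 (14.15), Col10a1 (14.07, from 1 region), Itgb2l (14.06, from 3 regions) and Col4a1 (13.99), against the median of 5.072 for other genes.

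The type IV collagen pair held the most distal peaks of the families. Col4a1 (chr8:11198423-11312826, minus strand) and Col4a2 (chr8:11312805-11449287, plus strand) encode the chains that assemble as 2 alpha1 and 1 alpha2 and are read in opposite directions from a common promoter, where the GENCODE models overlap by 22 bases. Over the 250.9 kb of the pair lay 38 regions, 16 on the Col4a1 side and 22 on the Col4a2 side. Those at 83.47 to 109.3 kb on the Col4a2 side held no peak named for the families. The counts over the pair include them. The number of peaks over the pair was 3 and 4 in young WT Cre, 5, 11 and 18 in young EC-K4KO, 21 and 22 in old WT Cre and 30 and 28 in old EC-K4KO. As a share of all peaks of the library these were 0.0487 and 0.0417%, 0.021, 0.0435 and 0.0643%, 0.0478 and 0.0676%, and 0.0666 and 0.0716%. The numbers stood in the order of the mean list lengths of the groups, and the shares of neighbouring groups in that order overlapped. Of the 38 regions, 3 were found in all 9 libraries, 11 in at least 6, 12 in a single one, and 23 in no young WT Cre library but in at least 2 old ones. The young WT Cre lists were also the shortest ones.

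The common promoter itself was a weak peak. It was absent from young WT Cre and young EC-K4KO replicate 1, with folds of 4.59 and 3.15 in young EC-K4KO replicates 2 and 3, 2.82 and 2.91 in old WT Cre and 3.21 and 2.93 in old EC-K4KO. In old WT Cre replicate 2 the peak was named for Col4a2 and elsewhere for Col4a1. The RefSeq promoter of Col4a1 (GRCm38.p6, minus strand, chr8:11312777-11313076, 250 bases before to 50 after the start) is shown because both genes start there, with matches to the KLF pattern CCNCNCCC on either strand in capitals. A match is a run of letters and was not tested for binding.
Col4a1 promoter: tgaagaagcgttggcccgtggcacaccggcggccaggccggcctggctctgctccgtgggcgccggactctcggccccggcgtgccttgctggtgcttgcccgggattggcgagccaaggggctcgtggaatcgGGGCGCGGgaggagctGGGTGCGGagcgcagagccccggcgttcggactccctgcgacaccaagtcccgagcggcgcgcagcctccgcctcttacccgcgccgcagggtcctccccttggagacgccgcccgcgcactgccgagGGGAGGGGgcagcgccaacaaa
It held 3 matches to this pattern and 0 to the ETS core. A KLF match was held by 63.5% of 14430 genes. Among genes with a promoter peak in at least 5 libraries the share was 76.1%. Of the 74 genes, 54 were found in the RefSeq promoter table.

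**Figure D4:**
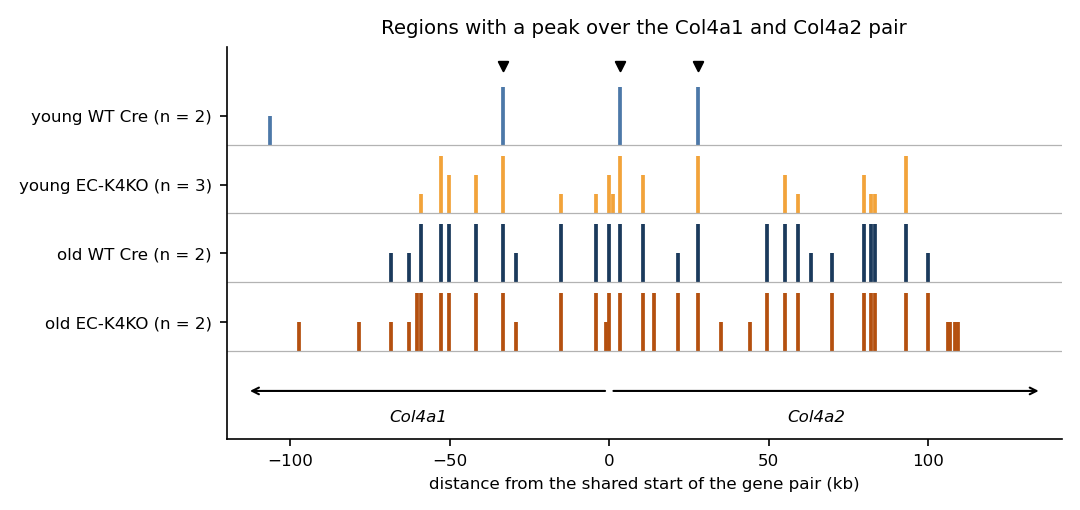
Regions over Col4a1 and Col4a2 by distance from the common start in kb, with the height of each line showing the share of a group's libraries that held a peak. Triangles mark the 3 regions found in all 9 libraries, which lie inside the genes, at intron 1 of Col4a1 and intron 3 of Col4a2, and not at the common promoter.

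Regions found in every library can be ranked over the same set in each list. The shortest lists, those of young WT Cre, limit that set, and fold still depends on depth, which is unknown. Of the 484 family regions, 11 (2.27%) were found in all 9 libraries, against 5.27% of all regions. Of these 11, 9 were distal and 8 lay in introns (72.7%), whereas 14.3% of all 4872 shared regions were intronic and 62.5% were at promoters. The distal ones were in intron 1 of Lama4, upstream of Itga3, in intron 1 of Itga6, in intron 2 of Lama5, at 2 places in intron 1 of Hspg2, in intron 1 of Col4a1 and at 2 places in intron 3 of Col4a2, and the promoters were those of Itga1 and Lamb2. The genes therefore include the alpha chains of the endothelial laminins, both chains of the main type IV collagen, perlecan and the alpha subunits of laminin receptors. The family's shared distal regions had a median percentile of 27.2 in strength among shared regions (100 being the strongest), against 36.3 for all shared distal and 56.7 for all shared promoter regions.

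The sequences at the middle of the bases common to all libraries are shown for 4 of the 5 shared distal windows with a match to AP-1, since that pattern was the one in which the windows stood furthest from other regions. Each is 200 bases of mm10, plus strand, with TGANTCA in capitals (the pattern reads the same on both strands and was counted once).
Itga6 intron 1, chr2:71801773-71801972: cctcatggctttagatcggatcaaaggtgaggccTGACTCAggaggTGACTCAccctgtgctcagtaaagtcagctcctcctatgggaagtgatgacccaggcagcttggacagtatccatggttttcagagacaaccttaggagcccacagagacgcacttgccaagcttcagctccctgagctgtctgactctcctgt
Lama5 intron 2, chr2:180216061-180216260: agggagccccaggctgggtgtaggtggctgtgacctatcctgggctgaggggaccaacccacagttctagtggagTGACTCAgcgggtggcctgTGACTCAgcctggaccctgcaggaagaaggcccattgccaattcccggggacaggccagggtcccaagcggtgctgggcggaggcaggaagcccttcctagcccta
Hspg2 intron 1, chr4:137497486-137497685: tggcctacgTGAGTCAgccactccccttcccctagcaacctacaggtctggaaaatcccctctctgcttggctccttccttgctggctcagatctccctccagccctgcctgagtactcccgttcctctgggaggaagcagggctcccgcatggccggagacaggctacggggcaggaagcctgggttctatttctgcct
Col4a2 intron 3, chr8:11316217-11316416: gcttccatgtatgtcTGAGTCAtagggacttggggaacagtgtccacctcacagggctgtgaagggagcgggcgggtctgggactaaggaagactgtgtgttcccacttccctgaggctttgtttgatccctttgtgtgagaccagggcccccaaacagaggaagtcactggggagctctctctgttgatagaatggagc
AP-1, the dimer of FOS and JUN proteins, matched in 5 of the 9 distal windows (55.6%) and in 193 of 1220 windows of all shared distal regions (15.8%). The KLF pattern CCNCNCCC matched in 5 of 9 against 41.5%, the ETS core CNGGAA in 5 of 9 (55.6%) against 63.3%, and the SOX core AACAAT in 0 of 9 against 13.7%, each on both strands. No base lay in both a KLF and an ETS match. With 9 windows, some of them in the same gene, these shares are a description. The windows of Lama4, Itga3, Col4a1 and the other Hspg2 region held no AP-1 match.

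Col4a1 intron 1 (chr8:11279112-11279838, 33351 bp downstream of the TSS) was the strongest of the 11. Its percentile among shared regions was 86.3 and 67.3 in young WT Cre, 80.8, 66.0 and 67.2 in young EC-K4KO, 54.4 and 57.1 in old WT Cre and 40.2 and 39.0 in old EC-K4KO. Every old value lay below every young one, and within age both old EC-K4KO values lay below both old WT Cre values. In limma on the normal score of the rank, in units of 1 SD over shared regions, the difference between old and young EC-K4KO was -0.84 (SE 0.311, adjusted p = 0.119), and that between old and young WT Cre -0.63 (SE 0.340, adjusted p = 0.223), and neither passed the threshold of 0.05. The ETS core matched 4 times in its window, the most of the 11.

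The 2 shared Col4a2 regions had limma differences of opposite sign between ages, and neither passed. The one near the start of the gene (chr8:11316087-11316568, 3499 bp downstream of the TSS) had percentiles of 6.3 and 31.1, then 23.8, 14.2 and 12.2, then 38.7 and 28.6, then 37.5 and 56.0, in the same order of groups. The one deeper in the intron had 51.6 and 55.2, then 40.7, 49.7 and 23.0, then 31.2 and 17.2, then 14 and 11.4. In limma the old against young EC-K4KO difference was 0.90 (SE 0.355, adjusted p = 0.138) at the former and -0.81 (SE 0.317, adjusted p = 0.133) at the latter. The difference between the regions was not tested.

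**Figure D5:**
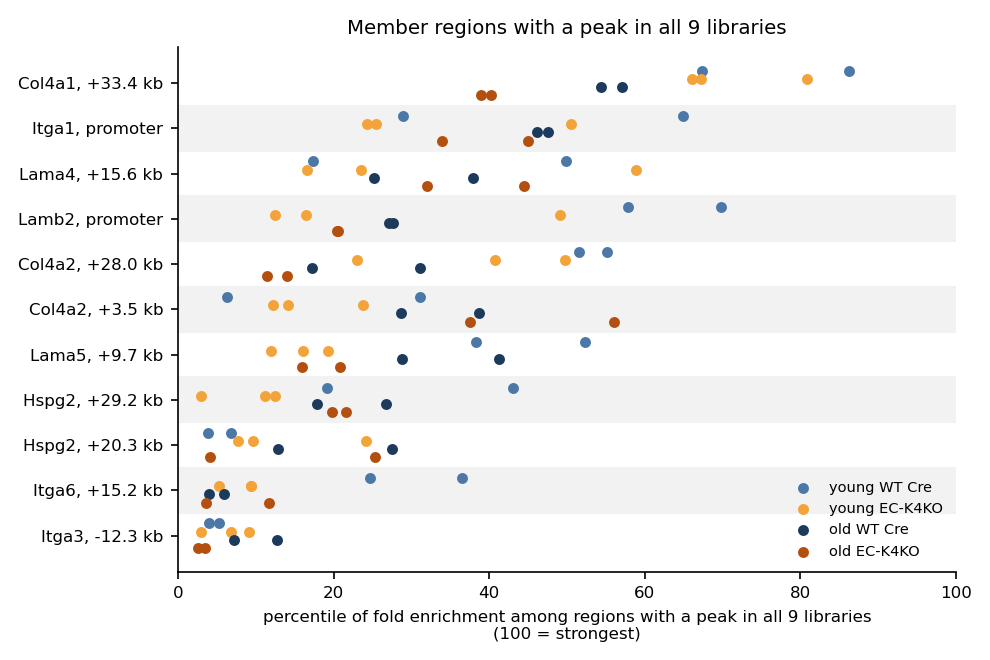
Percentile of strength among the 4872 shared regions for each of the 11 family regions found in all 9 libraries, one point per library coloured by group. Itga6 intron 1 lies at 24.7 and 36.5 in young WT Cre and at 3.6 to 11.8 in the other 7 libraries, and Col4a1 intron 1 is the highest in 7 of the 9 libraries.

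Of the 11 regions, 1 passed limma in any contrast. This was Itga6 intron 1 (chr2:71801550-71802657, 15221 bp downstream of the TSS), with percentiles of 36.5 and 24.7 in young WT Cre, 9.4, 5.3 and 9.5 in young EC-K4KO, 4.0 and 6.0 in old WT Cre and 11.8 and 3.6 in old EC-K4KO. Both young WT Cre libraries stood above the other 7. It was lower in old than in young WT Cre by a difference of -1.14 (SE 0.339, limma adjusted p = 0.0446), as 13.6% of all shared regions differed in that contrast in either direction. In young EC-K4KO against young WT Cre the difference was -0.90 (SE 0.309, limma adjusted p = 0.117), and none of the 11 passed there, against 1.68% of all regions (82 by limma, and 1048 at an unadjusted p under 0.05). The old against young WT Cre call was kept in 9 of 18 alternative settings, with the same direction in 18 and adjusted p from 0.0121 to 0.189. It was lost without young WT Cre replicate 1 or 2 (limma adjusted p = 0.137 and 0.0538), old WT Cre replicate 1 or 2 (0.189 and 0.155), young EC-K4KO replicate 2 (0.0573) and either old EC-K4KO library (0.0728). A two-sided exact permutation test of age within genotype, with 60 arrangements, averaged the percentile difference over both genotypes. The limma call was in WT Cre alone. The old against young difference was -13.0 points (permutation p = 0.167). That of genotype within age, averaged over both ages, was -9.94 points (permutation p = 0.1).

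Regions of EC markers moved in the same contrasts. The 12 markers had 22 shared regions. In old against young WT Cre (13.6% of all shared regions called), limma called 5 of them lower and 1 higher. In young EC-K4KO against young WT Cre (1.68% of all called), it called 3 lower. The lower ones in old WT Cre were the promoters of Cldn5 (-1.95, SE 0.351, adjusted p = 0.0145), Cdh5 (-1.92, adjusted p = 0.029) and Flt1 (-1.43, adjusted p = 0.0254) and regions in Slc2a1 (-1.27, adjusted p = 0.0498) and Tek (-1.21, adjusted p = 0.0309), and an intergenic Flt1 region was higher (1.81, adjusted p = 0.0169). In young EC-K4KO they were Cdh5 (-2.56, limma adjusted p = 0.0296), Tek (-1.59, adjusted p = 0.0296) and Cldn5 (-1.50, adjusted p = 0.039). Their part in the Itga6 result was not tested.

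None of the 11 regions passed in old EC-K4KO against old WT Cre, where limma called 0% of the 4872 regions (0 called, 205 at an unadjusted p under 0.05, 16 called with array weights). None passed in old against young EC-K4KO, where it called 4.6% (with array weights Col4a1 intron 1 and the deeper Col4a2 region passed as lower and the other Col4a2 region as higher, and ranked by -log10 p the deeper Col4a2 region passed as lower and Lama4 intron 1 as higher), or for the interaction of genotype and age, where it called 0% (0 called, 382 at an unadjusted p under 0.05). The interaction at Itga6 intron 1 was 1.06 (SE 0.458, adjusted p = 0.599), so a genotype difference that depends on age was not shown there. Over the 11 regions the median difference was -0.36 in young EC-K4KO against young WT Cre, where that of all regions was -0.02, and -0.24, -0.22 and -0.06 in old against young WT Cre, old EC-K4KO against old WT Cre and old against young EC-K4KO.

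No other shared region passed after adjustment over the 4872 regions. At the Lamb2 promoter the percentiles were 69.8 and 57.8 in young WT Cre, 12.4, 16.4 and 49.1 in young EC-K4KO, 27.7 and 27.1 in old WT Cre and 20.4 and 20.6 in old EC-K4KO, so both young WT Cre values were above the other 7. The limma difference of young EC-K4KO from young WT Cre was -1.08 (SE 0.354, adjusted p = 0.106), and ranked by -log10 p it passed (adjusted p = 0.0264). Lama5 intron 2 had 52.3 and 38.4, then 16.1, 12 and 19.3, then 28.7 and 41.2, then 15.9 and 20.8, and a difference of -0.89 (SE 0.294, limma adjusted p = 0.106) in the same contrast. At both places every EC-K4KO value lay below every WT Cre value of the same age. Hspg2 intron 1 held 2 shared regions of unlike strength. The one at chr4:137497305-137498698, 29213 bp from the TSS, had 43.0 and 19.1, then 3.0, 12.4 and 11.2, then 26.8 and 17.9, then 21.6 and 19.8, with all 3 young EC-K4KO values the lowest of the 9. The difference of young EC-K4KO from young WT Cre was -0.89 (SE 0.338, limma adjusted p = 0.152). The one at chr4:137487697-137489352 had 3.9 and 6.8, then 9.7, 24.2 and 7.7, then 27.5 and 12.9, then 25.4 and 4.2, and young WT Cre was low there. Lama4 intron 1 (chr10:38980878-38981446) had 17.3 and 49.8, then 58.8, 23.6 and 16.6, then 37.9 and 25.2, then 44.4 and 32.0, with a spread between replicates as wide as that between groups. The region upstream of Itga3 (chr11:95088412-95089657) was weak throughout, from 2.6 to 12.7. The Itga1 promoter, by contrast, had 28.9 and 65, 50.6, 24.3 and 25.4, 46.1 and 47.6, and 45.0 and 33.9, with all groups overlapping young WT Cre.

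As presence or absence, regions of the families differed from all regions by a few percentage points. Regions absent from young WT Cre and present in at least 2 libraries of a group numbered 45 of 484 (9.30%) in young EC-K4KO (background over all regions 10.2%), 100 (20.7%, background 17.4%) in old WT Cre, and 152 (31.4%, background 26.6%) in old EC-K4KO. Among regions found in at least 2 libraries, the shares were 19.8% of 227 against 23.9%, 44.1% against 40.8% and 67.0% against 62.2%. Present in all 4 old libraries and in no young one were 26 regions (5.37% against 3.81% of all). They included the Col16a1 and Col8a1 promoters, 1 region in intron 1 of Lama4 at 18041 bp from the TSS and 1 in intron 4 of Col4a2 at 49852 bp. Others lay between genes, at -31485 and -37374 bp from the Col18a1 TSS and at -22849, -35018 and -86268 bp from that of Itga1, where a negative distance is upstream. Present in all 5 EC-K4KO libraries and in no WT Cre library were 0 of the 484, against 0.0195% of all regions. One region in intron 1 of Lamc1, 32211 bp from the TSS, was found in all 3 young EC-K4KO libraries (folds 3.34, 3.94 and 4.23) and in no other library, and it is named here because of its values.

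Of the 5 distal regions found in 8 libraries, those upstream of Col18a1 and Itga1 are given here, and the others are not. The pair upstream of Col18a1 had their highest folds in different groups. The region at -40301 bp from the TSS was missing in young WT Cre replicate 1 and had folds of 3.67 in replicate 2, 2.93, 6.71 and 7.15 in young EC-K4KO, 7.66 and 7.40 in old WT Cre and 9.29 and 8.12 in old EC-K4KO. The region at -44840 bp was missing in young WT Cre replicate 2 and had 4.02 in replicate 1, 3.39, 5.44 and 4.65 in young EC-K4KO, 3.73 and 4.07 in old WT Cre and 3.33 and 3.44 in old EC-K4KO. The highest folds of the former were in old libraries. Those of the latter were in young EC-K4KO replicates 2 and 3, with replicate 1 at 3.39. Folds of different libraries were not tested against each other. A region at -17056 bp from the Itga1 TSS had 4.81 in young WT Cre replicate 2, 4.29, 7.69 and 7.41 in young EC-K4KO, 7.76 and 8.55 in old WT Cre and 11.8 and 11.7 in old EC-K4KO, the highest folds of the families at a shared or nearly shared region.

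Genes that act with these families were compared from lists of partners. Of 20 integrin adaptors and kinases, 7 had a promoter peak in all 9 libraries, namely Tln1 (talin, which switches integrins on), Ilk, Lims1 and Rsu1 (the integrin-linked kinase complex), Vcl, Zyx and Itgb1bp1, and 2 had none. Their number per library was 8 in both young WT Cre libraries, 12 to 13 in young EC-K4KO, 13 to 14 in old WT Cre and 13 to 15 in old EC-K4KO. Of 10 shared regions of these genes, limma called 1 in young EC-K4KO against young WT Cre (1.68% of all shared regions), at Zyx, the focal adhesion protein zyxin (-1.90, SE 0.296, adjusted p = 0.0225). In old against young WT Cre (13.6% of all shared regions) it called 3, all lower, at Zyx (-2.36, SE 0.324, adjusted p = 0.00773), Lims1 (-1.33, SE 0.380, adjusted p = 0.0388) and Parvb (-1.29, SE 0.40, adjusted p = 0.0497). In the other contrasts none passed.

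Of 22 genes for the maturation and export of collagen, Mia3 alone (the export receptor TANGO1) had a promoter peak in all 9 libraries and 9 had none, with 4 per library in young WT Cre, 4 to 7 in young EC-K4KO, 6 to 8 in old WT Cre and 7 in either old EC-K4KO library. Within 1000 bp of the TSS, P4ha1, Plod2, Plod3 and Colgalt1, which hydroxylate or glycosylate collagen, joined Mia3 in all 9. None of 8 shared regions of this list passed in any contrast. Of 22 other matrix proteins and receptors, Dag1 (dystroglycan, a laminin receptor) was open at the promoter in all 9 libraries and 12 genes had no promoter peak, and none of 5 shared regions passed. Of the 6 integrin alpha subunits named by a letter, Itgav, the vitronectin receptor subunit, had a promoter peak in 4 libraries and the other 5 had none. Promoters open in all 9 libraries thus numbered 7 of 20 for adaptors and kinases and 1 of 74 for the chains and receptors themselves, with 11.4% for all genes.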

How the data were processed

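Omni-ATAC-seq was performed on nuclei of purified mouse brain ECs, 9 libraries in 4 groups as labelled. After trimming (TrimGalore) and mapping to mm10 (Bowtie2), the authors filtered duplicates and poor alignments and ran MACS2 per library in its broad, paired-fragment mode, and name no control. The deposited lists hold the peak caller's score, the fold enrichment (a ratio to local background, averaged over the peak), and the -log10 p and -log10 q of each peak. The annotation deposited by the authors, of the form HOMER writes, gives a class, the distance to the nearest TSS in bp and a gene name. Fold and score depend on depth, which is unknown since read counts were not analysed here, so the DiffBind test of the study was not rerun.

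Names were matched in full, so Col4a3bp (a ceramide transporter), Itgb1bp1, Itgb1bp2 and Itgb3bp were not taken. Overlapping peaks (1 bp or more) of all libraries were joined as regions. A region was distal when over 1000 bp from a TSS and outside the promoter class. Counts over the genes carry no p and stand beside the same count over all genes. Strength was tested over the 4872 regions held in all 9 libraries, on the normal score of the within-library rank of the fold, with limma 3.58.1 in R 4.3.3 (group means, shared spread, Benjamini-Hochberg over all 4872, threshold 0.05). An exact permutation test with labels shuffled within strata was added for called regions. The limma, permutation and motif scripts were tested on simulated data. Python 3.11.15, numpy 2.4.6, pandas 2.3.3, scipy 1.17.1, matplotlib 3.10.9 and pysam 0.24.0 were used, with GENCODE M21 gene models, GRCm38 sequence and RefSeq promoters (54 of 74 genes matched).

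Any of the 74 genes could be named. Full values were given for genes with a promoter peak in all 9 libraries, genes with one in no young WT Cre library and at least 2 libraries of each other group, called regions, the 10 genes with most distal regions, and genes chosen by role. One gene and 1 sequence that these rules would include are not reported here. Other regions were named from those shared by 8 or more libraries, not all of which are given, or as examples of a pattern of presence. The genes, lists and tests were chosen with earlier results of these data known. Alternatives were ranks by -log10 p, quantile-normalized log2 fold, stricter q, another overlap, other library minimums, array weights, a replicate block, lists of equal length, a 1000 bp promoter window and leaving out each library.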

Additional observations from a re-analysis of the deposited data

How the results depend on the processing

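Depth is unknown, lists differ in length by group, and with 2 or 3 libraries a group the counts of called regions were unstable. For promoters, the EC-K4KO minus WT Cre difference of 4.42 genes became -2 in lists of equal length and 9.58 with a 1000 bp window, and was 3.42 to 5.42 leaving out each library. The old minus young difference of 14.6 became -1 and 21.9, and was 13.6 to 15.6. For the share of distal peaks, the genotype difference of -0.0277 percentage points became 0.00786 in lists of equal length and 0.00722 at q under 0.01 (-0.0552 to -0.000159 leaving out each library), and the age difference of 0.112 became -0.0388 and 0.0516 (0.0844 to 0.139). The cause was not tested, beyond list length being what the shortened lists change.

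Regions called by limma in young EC-K4KO against young WT Cre numbered 82, and 202 ranked by -log10 p, 576 and 2360 with regions in at least 7 or 2 libraries, 8 with array weights, and 0 to 615 leaving out each library (0 without young EC-K4KO replicate 2 or 3, 615 without replicate 1). In old against young WT Cre they numbered 662, and 296, 2317 and 8300 under the first 3 of these, and 0 to 989 leaving out each library (0 without either old WT Cre library). In old EC-K4KO against old WT Cre, 0 became 1193 with regions in at least 2 libraries and 16 with array weights, and 0 leaving out each library. In old against young EC-K4KO, 224 became 1624, 6571 and 1174 with at least 7 libraries, at least 2 libraries and array weights, and 0 to 387 leaving out each library (0 without either old EC-K4KO library). The interaction gave 0, and 1719 with at least 2 libraries, where an absent peak enters as the lowest rank. The Itga6 intron 1 call in old against young WT Cre was also lost at q under 0.01 (adjusted p = 0.0719) and with array weights (adjusted p = 0.0953).

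Same-numbered libraries did not deviate together (correlations of 0.00427 to 0.188, not all over 0.1), so numbers were not taken as pairs. With a replicate block, limma called 4, 774, 0, 382 and 0 regions in the 5 contrasts in the same order, and the 4 differences were 4.5 and 14.5 genes and -0.0338 and 0.118 percentage points.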
